A study of Mus musculus with 3 samples.

Results

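The coagulation and fibrinolysis regulators described here are 8 genes of the 32285 listed in the count matrices: F3, Thbd, Procr, F2r, Serpine2, Plau, Plat and Plaur. They were chosen by name, as genes for tissue factor, thrombomodulin, the protein C receptor, the plasminogen activators and their closest partners, and all 8 were detected. Single cells from the dorsal skin of C57BL/6J mice, labelled female and wild type, were sequenced from transcript 3' ends in droplets, as 3 libraries with 1 for each condition. The labels give an age of 8 weeks, which in the study's methods is that of the mice as purchased. The CON library came from skin without UV exposure that had the vehicle. The UV library came from skin given the vehicle and irradiated every other day for 12 weeks with UVA (0.6 mW/cm2) plus UVB (3.5 mW/cm2), and the Rux library from skin irradiated alike and given 1.5% ruxolitinib, a JAK1/2 inhibitor, in that vehicle straight after each irradiation. Tissue was taken 24 h after the last exposure, and the number of mice behind a library was not stated, so that no spread between animals can be given and no test between conditions was made.

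Blood clotting starts when tissue factor, the product of F3, meets plasma factor VII, and the cascade ends in thrombin. Thrombin bound to thrombomodulin (Thbd) on a cell surface activates protein C, which the endothelial protein C receptor (Procr) presents, so the same protease that makes fibrin also limits its own formation. Thrombin also signals to cells by cutting the receptor PAR1 (F2r), and the serpin protease nexin-1 (Serpine2) inhibits it and the plasminogen activators. Fibrin is dissolved by plasmin, which urokinase (Plau) and tissue plasminogen activator (Plat) release from plasminogen, and the receptor uPAR (Plaur) holds urokinase at the cell surface. In skin these proteins act in haemostasis, wound repair, pericellular matrix turnover and migration.

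On GRCm38 with the GENCODE M21 annotation, the member genes lay on 7 chromosomes, and no other annotated gene overlapped any of them. F3 was at chr3:121723537-121735048 on the plus strand, Thbd at chr2:148404466-148408188 on the minus strand and Procr at chr2:155751117-155755471 on the plus strand. F2r was at chr13:95601803-95618487 and Serpine2 at chr1:79794197-79861180, both on the minus strand. The plus strand held Plau at chr14:20836660-20843385, Plat at chr8:22757727-22782844 and Plaur at chr7:24462484-24475968.

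Some members are known targets of the stress-responsive factor AP-1, so the 250 bases before each RefSeq gene start (GRCm38.p6) were searched for its site TGANTCA, which reads alike on both strands. Windows were at hand for 5 of the 8 members, F3, Procr, Serpine2, Plaur and F2r, and those of 4, not Serpine2, held the letters. Of all 32851 such windows, 6.75% held them. The stretches around the matches are shown 5' to 3' along the gene's strand, with each match in capitals. Distances are counted from the RefSeq start, which in Procr and F2r is not the GENCODE start given above. The F3 stretch lies at chr3:121723351-121723448 and holds 2 matches, 146 and 135 bases before the start. Those of the others begin 154 bases before the start in Procr (chr2:155751023-155751109), 69 in Plaur (chr7:24462374-24462460) and 204 in F2r (chr13:95618624-95618710, minus strand).
F3: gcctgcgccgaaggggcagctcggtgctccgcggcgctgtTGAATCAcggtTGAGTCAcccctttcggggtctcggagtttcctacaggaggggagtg
Procr: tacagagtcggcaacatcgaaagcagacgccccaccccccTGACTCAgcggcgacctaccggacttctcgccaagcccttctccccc
Plaur: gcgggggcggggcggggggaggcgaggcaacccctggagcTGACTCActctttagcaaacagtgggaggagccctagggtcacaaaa
F2r: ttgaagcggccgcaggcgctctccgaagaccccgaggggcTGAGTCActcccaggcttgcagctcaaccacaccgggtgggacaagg
A match describes the sequence only, and binding was not measured.

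Cells were clustered with the members kept out of the variable genes, and clusters were named from marker genes as fibroblast (FB), pericyte and vascular smooth muscle (PCY), vascular and lymphatic endothelial (VEC and LEC), Schwann (SCH), inner root sheath and hair shaft (HF), basal keratinocyte (KB), myeloid (MYE) and lymphocyte (LYM) "-like" cells. These 9 classes held at least 100 cells in every library. The KB name rests on Krt14, Krt5, Col17a1, Itga6 and Krt15. Of the 800 KB-like cells in CON, 657 were in cluster 8, which had the hair follicle stem cell genes Lgr5 and Lhx2 among its leading genes. The kept cells numbered 10777, 10231 and 9299 in CON, UV and Rux, with median UMIs per cell between 7549 and 9438. A further 3954, 2120 and 1809 of them were in clusters left unnamed. The libraries shared 28 to 50 cell barcodes in pairs. Although the labels say female, Xist stood at 0.0922 to 0.119 CPM and the Y-linked Ddx3y at 110.4 to 121 CPM, alike in all 3 libraries. Levels below are in CPM, the UMIs of a gene scaled to the summed UMIs of a class in a library, with no division by length, since each UMI marks a transcript end. Intervals are exact 95% limits that cover counting error only, since PCR and animal variation are not in them.

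Each member had its own pattern over the classes, and the plot of levels by class and library shows it. F3 led in hair follicle and fibroblast-like cells, Thbd and Procr in the vessel wall and fibroblasts, Plat and F2r in lymphatic endothelium, Serpine2 in lymphatic endothelium and pericyte-like cells, Plau in fibroblasts and Plaur in myeloid and endothelial cells. LEC-like cells carried 7 of the 8 genes at 43.5 CPM or more in every library, all but F3, which stood there at 20.6, 31.7 and 13.7 CPM in CON, UV and Rux.

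**Figure D1:**
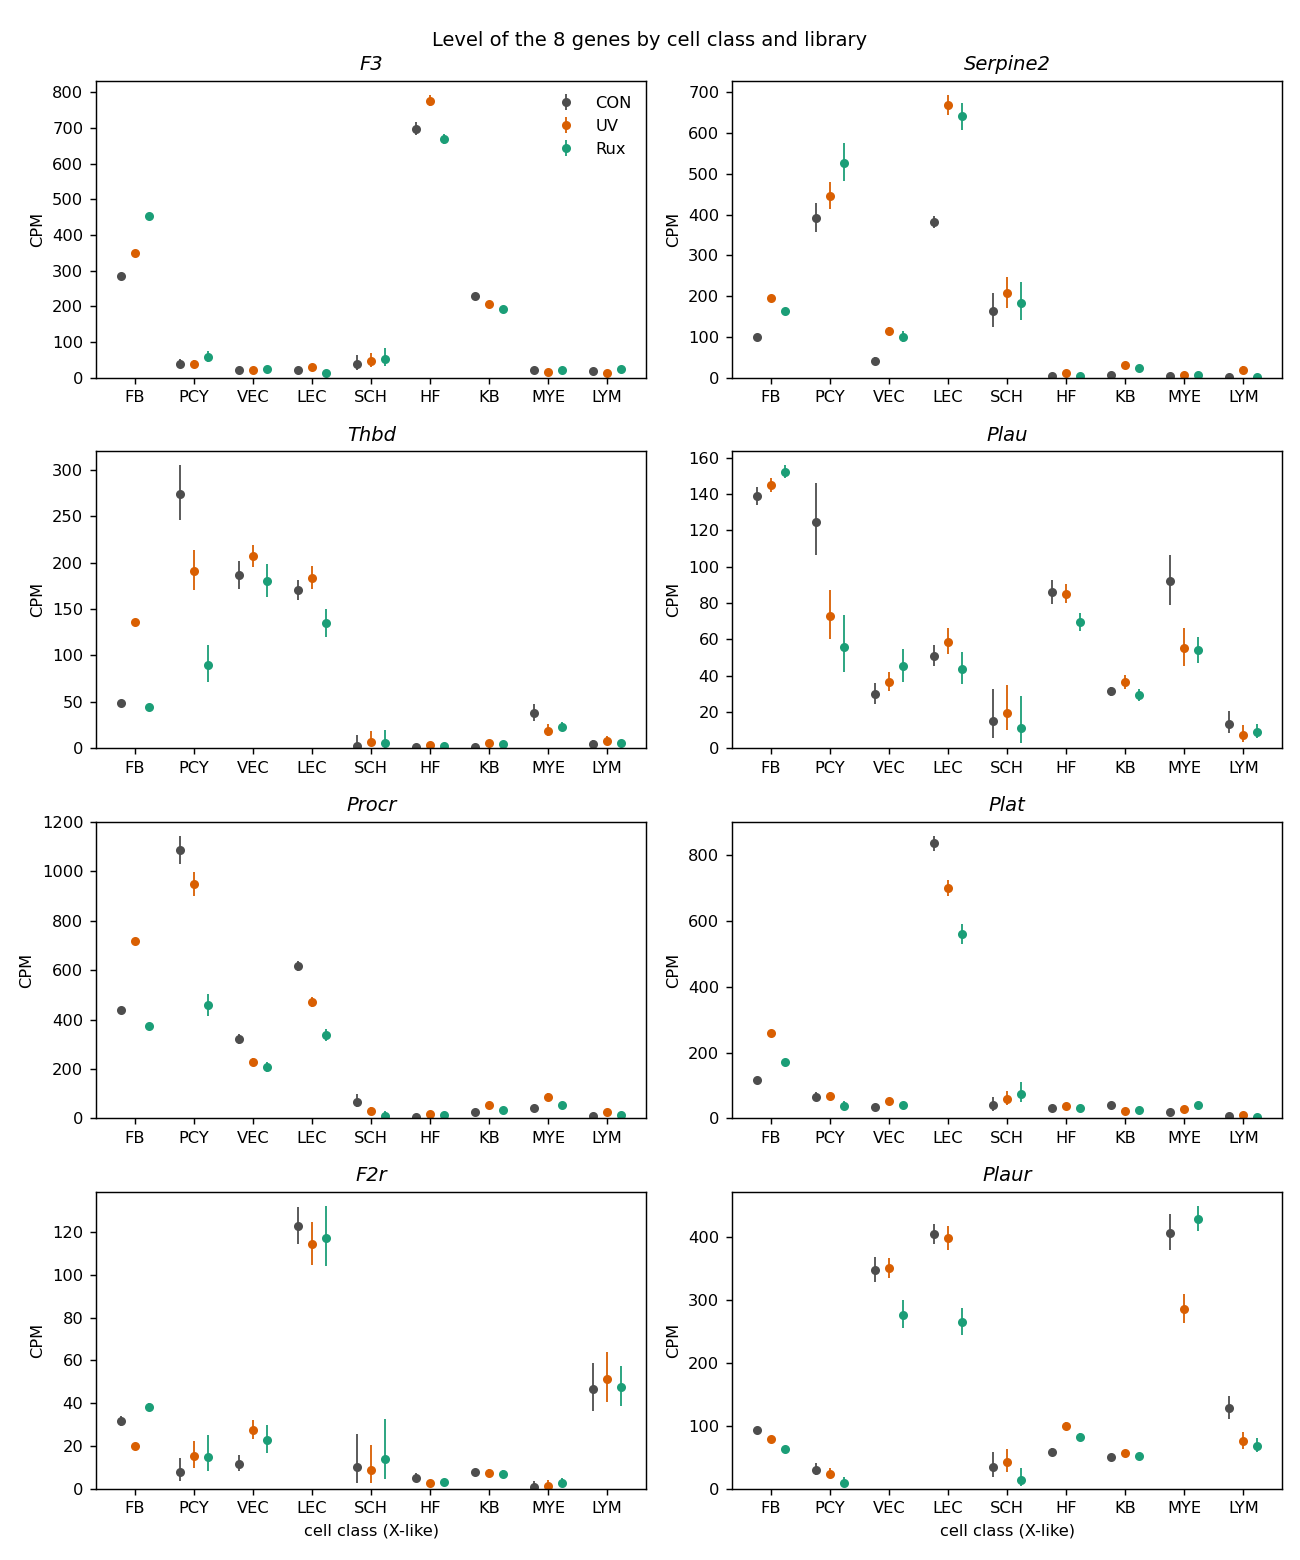
Level of each gene (CPM, linear axis from 0) in the 9 classes (x axis, each read as X-like) in the CON, UV and Rux libraries, with exact 95% counting intervals as bars. F3 peaks in HF-like cells (669 to 777 CPM), Procr in PCY-like cells (458 to 1085 CPM) and Plat in LEC-like cells (559.8 to 836 CPM), and the FB-like UV points of Thbd, Procr, Serpine2 and Plat lie above both other libraries.

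F3, the initiator of clotting, was an epithelial and fibroblast gene in this skin. HF-like cells held 698, 777 and 669 CPM in CON, UV and Rux, FB-like cells 285, 349 and 454 CPM, and KB-like cells 228, 207 and 193 CPM. The ranges of these 3 classes did not overlap, and every other compared class stayed at or below 58.0 CPM. After each cell was thinned to 2000 UMIs, a F3 UMI was found in 51.9%, 59.1% and 54.4% of HF-like cells (82.2%, 87.6% and 88.2% before thinning). In MYE-like cells the shares were 2.73%, 3.06% and 4.48% (10.1%, 12.4% and 17.2% before thinning). That class was taken as the background for its low share, and whether its cells make F3 themselves was not tested. Thinning matters here because the median UMIs per cell ran from 6576 to 8921 in MYE-like and from 20580 to 25231 in HF-like cells.

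Among the clusters pooled over the 3 libraries, F3 was highest in clusters 5 and 7 (1189 and 781 CPM). These epithelial clusters stayed unnamed because they carried both HF and KB markers, as did cluster 26 with 254 CPM. A dividing cluster led by Itga2, Hist1h1b and Anln (cluster 5) held 1125, 1279 and 1159 CPM, and its neighbour led by Slc16a7 and Itga2 (cluster 7) held 673, 1053 and 759 CPM. In cluster 7 the UV level was the highest, with a log2 ratio of 0.64 for UV over CON and −0.47 for Rux over UV. Unnamed clusters supplied 66.9%, 53.8% and 33.2% of all F3 UMIs of kept cells in CON, UV and Rux, while FB-like cells supplied 12.0%, 23.8% and 46.0%.

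In FB-like cells the F3 ratio was 0.30 (0.25 to 0.34) for UV over CON and 0.38 (0.35 to 0.41) for Rux over UV, both short of the 1.5-fold used here to call a difference. The order CON, UV, Rux also held for the thinned share of FB-like cells with a UMI, at 33.2%, 36.8% and 43.6% (54.0%, 58.1% and 72.1% before thinning). Among the 9 classes F3 crossed 1.5-fold only where it was scarce, in LEC-like cells (0.62 and −1.20) and, for Rux over UV, in LYM-like cells (14.3 to 24.2 CPM). Its LEC-like value of 0.62 dropped to 0.29 when suspected doublets were kept and to 0.25 when each cell weighed the same.

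**Figure D2:**
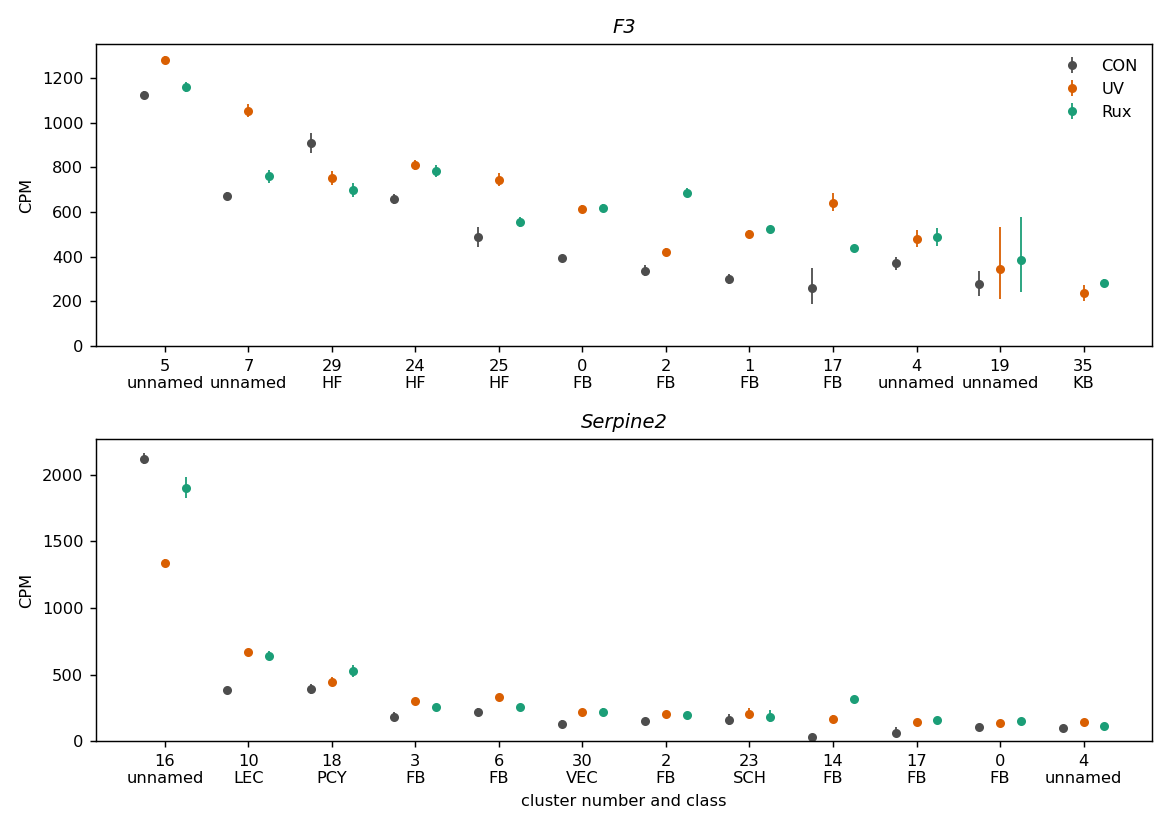
Level (CPM, linear axis from 0) of F3 (top) and Serpine2 (bottom) in the 12 clusters where each was highest, by library, with exact 95% counting intervals and with the cluster number and class on the x axis. F3 is highest in unnamed epithelial cluster 5 (1125 to 1279 CPM) and Serpine2 in unnamed cluster 16 (1338 to 2121 CPM), above every named class.

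Thbd, the cofactor that turns thrombin toward protein C, was carried by the vessel wall in all 3 libraries. VEC-like cells held 186, 207 and 180.3 CPM and LEC-like cells 170.5, 184 and 135 CPM. The difference between conditions was below 1.5-fold in both endothelial classes, with log2 ratios of 0.15 and 0.11 for UV over CON and −0.20 and −0.45 for Rux over UV. The levels in these classes overlapped, so their order is not resolved.

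Outside the endothelium, Thbd differed by more. FB-like cells held 49.1 CPM in CON, 136 CPM in UV and 44.9 CPM in Rux, which gave ratios of 1.47 (1.37 to 1.56) and −1.59 (−1.67 to −1.52). The UV library alone was high, and CON and Rux lay close together. The thinned share of FB-like cells with a Thbd UMI followed, at 6.69%, 14.5% and 6.29% (12.9%, 29.1% and 18.5% before thinning), against 0.344%, 1.35% and 0% of HF-like cells, where 0 of 371 cells allow a share of up to 0.809%. PCY-like cells held 275, 192 and 90.2 CPM, lowest in Rux (−1.08, −1.45 to −0.74), but their thinned shares of 13.1%, 17.6% and 13.8% (20.9%, 28.5% and 22.4% before thinning) did not follow that order, so no order is read from the shares. With suspected doublets kept the PCY-like Rux over UV ratio was −0.41. In MYE-like cells Thbd was lower in UV than in CON (18.9 against 37.7 CPM, −0.99), a value that was −0.20 with suspected doublets kept.

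Procr, the receptor that hands protein C to the thrombin and thrombomodulin complex, was the most abundant member of the protein C pathway. PCY-like cells held 1085, 948 and 458 CPM, LEC-like cells 617, 471 and 336 CPM, FB-like cells 438, 718 and 372 CPM, and VEC-like cells 321, 229.5 and 208 CPM. The first 3 ranges overlapped. The vessel-wall classes were highest in CON and lowest in Rux, whereas FB-like cells were highest in UV.

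In FB-like cells the Procr ratio was 0.71 (0.68 to 0.75) for UV over CON and −0.95 (−0.97 to −0.92) for Rux over UV. In PCY-like cells it was −0.19 and then −1.05 (−1.21 to −0.89), and in VEC-like cells −0.48 and −0.14, short of the fold. The VEC-like class was itself mixed. Cluster 30 of it, with the pericyte genes Rgs5 and Abcc9 among its leading genes, held 819.8, 404 and 301 CPM of Procr, against 59.2, 66.8 and 61.0 CPM in the Flt1 and Gpihbp1 cluster 13 and 284, 295 and 294 CPM in the Sele and Selp cluster 27. The CON excess in VEC-like cells was therefore seen in cluster 30 and not in the other two.

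Classes with little Procr were also past 1.5-fold higher in UV. KB-like cells went from 27.6 to 55.6 CPM (1.01, 0.84 to 1.19), MYE-like cells from 42.3 to 88.0 CPM (1.05, 0.67 to 1.45), HF-like cells from 7.88 to 16.6 CPM (1.06) and LYM-like cells from 9.59 to 24.6 CPM (1.33). Collagen and other fibroblast marker RNA in the same cells can be used to gauge how much Procr would come with fibroblast RNA. In UV that level was 7.66 of 55.6 CPM in KB-like, 24.6 of 88.0 CPM in MYE-like, 12.7 of 16.6 CPM in HF-like and 16.2 of 24.6 CPM in LYM-like cells. In SCH-like cells the measured UV level of 28.3 CPM was under the 57.5 CPM so estimated. The gauge covers fibroblast RNA only, not that of PCY or LEC-like cells, which also held much Procr. It is given for UV alone and so does not bear on the ratios. The part of RNA from other cells in the values of these 5 classes was not tested.

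Among KB-like cells, the Lgr5 and Lhx2 cluster 8 held 30.7, 79.7 and 14.3 CPM of Procr. Among MYE-like cells, cluster 20 held 52.9, 79.9 and 63.4 CPM, and the Il1b and Chil3 cluster 21 held 17.3, 103 and 52.8 CPM. Both myeloid clusters were thus highest in UV.

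F2r, the gene for the thrombin receptor PAR1, was a gene of low level in most classes. LEC-like cells held 123, 114 and 117 CPM and LYM-like cells 46.7, 51.2 and 47.4 CPM, with counting intervals that overlapped between libraries in both. No difference between libraries was detectable there at this depth. FB-like cells held 31.5, 19.97 and 38.3 CPM, so the UV library was low, with ratios of −0.66 (−0.81 to −0.50) and 0.94 (0.82 to 1.06). VEC-like cells held 11.4, 27.3 and 22.8 CPM, higher in UV than in CON by 1.24 (0.74 to 1.81). In the Sele and Selp cluster 27, with 192 of 481, 91 of 650 and 59 of 243 VEC-like cells, F2r was only 1.47, 2.43 and 1.87 CPM. It was 18.7, 27.5 and 34.0 CPM in cluster 13 and 16.9, 37.2 and 24.6 CPM in cluster 30, so both of these were lowest in CON, and the part of the make-up in the class value was not tested. MYE-like cells had a F2r UMI in 0%, 0% and 0.236% of thinned cells, where 0 of 256 and 0 of 229 cells allow shares of up to 1.17% and 1.31%, against 19.0%, 16.7% and 19.9% of LEC-like cells (53.1%, 58.7% and 58.3% before thinning).

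Among fibroblasts the F2r level was highest in small subclusters. When FB-like cells were clustered again, subcluster 12, led by Coch, Fmod and Crabp1, held 314, 251 and 419.9 CPM, and subcluster 8, led by Igfbp2 and Grem1, held 48.7, 89.6 and 219 CPM. Subcluster 8 made up 11.1% of FB-like cells in CON, 1.20% in UV and 5.64% in Rux. The unnamed cluster 12, whose leading genes Lrrc15, Col11a1, Ednrb and Acta2 mix fibroblast and contractile markers, held 239, 214 and 204 CPM of F2r.

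Serpine2, the inhibitor of thrombin and the plasminogen activators, was past 1.5-fold higher in UV than in CON in 4 classes. LEC-like cells held 381, 669 and 641 CPM in CON, UV and Rux, a ratio of 0.81 (0.73 to 0.89) for UV over CON and −0.06 for Rux over UV. FB-like cells held 99.8, 197 and 164 CPM (0.98, 0.91 to 1.05, then −0.26), VEC-like cells 42.5, 114 and 99.96 CPM (1.42, 1.16 to 1.70, then −0.19), and KB-like cells 7.27, 31.9 and 22.9 CPM (2.13, 1.84 to 2.43, then −0.48). KB-like cells came from different clusters in each library. Cluster 8 had 657, 225 and 106 of them in CON, UV and Rux, cluster 28 had 63, 95 and 184, cluster 35 had 9, 58 and 152, and cluster 38, led by Cstdc5 and Stfa3, had 71, 75 and 53. Serpine2 was 7.27, 30.5 and 30.2 CPM in cluster 8 and 3.15, 51.5 and 50.4 CPM in cluster 38, so CON was the lowest in both, but 11.8, 7.56 and 16.2 CPM in cluster 28. In all 4 classes UV and Rux lay on the same side of CON, and no compared Serpine2 ratio of Rux over UV passed the fold. HF, LYM and MYE-like cells fell short of the minimum of 10 CPM or 50 UMIs and were not compared. UV alone was high in HF-like (4.33, 12.2 and 3.38 CPM) and LYM-like cells (3.20, 20.1 and 3.07 CPM). MYE-like cells held 5.16, 6.77 and 6.60 CPM. PCY-like cells (392, 446 and 527 CPM) and SCH-like cells (163, 207 and 184 CPM) differed by less than 1.5-fold between neighbouring conditions.

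The highest Serpine2 level of all was in the unnamed cluster 16, led by Adgrb3, Lingo2, Hhip and Wif1, with 2121, 1338 and 1903 CPM. There the UV library was the lowest, with ratios of −0.67 and 0.51, opposite in sign to the FB, LEC, VEC and KB-like classes. In VEC-like cells the Flt1 and Gpihbp1 cluster 13 held 23.4, 54.9 and 30.5 CPM, so there Rux lay nearer to CON than to UV, unlike in the class as a whole. Pooled over the 3 libraries, Serpine2 was 203 CPM in cluster 30 but 16.9 CPM in cluster 27. Cluster 30 had 74, 177 and 62 of the 481, 650 and 243 VEC-like cells in CON, UV and Rux, and cluster 27 had 192, 91 and 59. The part of this make-up in the VEC-like value was not tested.

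Plau, the gene for urokinase, was the member that differed least in fibroblasts as captured. FB-like cells held 139, 145 and 152 CPM, with ratios of 0.06 and 0.07. HF-like cells held 85.9, 85.0 and 69.6 CPM. Plau was lower in UV than in CON in PCY-like cells (125 against 72.7 CPM, −0.78, −1.13 to −0.43) and in MYE-like cells (91.8 against 55.1 CPM, −0.73, −1.09 to −0.39), and Rux held 55.8 and 53.8 CPM in these classes. The MYE-like value was −0.41 when suspected doublets were kept. Pooled over the 3 libraries, Plau was 90.6 CPM in myeloid cluster 20 and 35.1 CPM in cluster 21. Cluster 20 had 205, 147 and 154 cells in CON, UV and Rux, and cluster 21 had 72, 95 and 299. The part of this make-up in the MYE-like levels was not tested.

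Plat, the gene for tissue plasminogen activator, was foremost a lymphatic gene. LEC-like cells held 836, 701 and 559.8 CPM, falling short of 1.5-fold at each step (−0.25 and −0.32). FB-like cells held 117, 259 and 172 CPM, with ratios of 1.14 (1.08 to 1.20) and −0.59 (−0.63 to −0.55), and 17.9%, 30.1% and 23.0% of thinned cells had a UMI (38.5%, 56.6% and 54.8% before thinning), against at most 1.30% of LYM-like cells. In fibroblasts, then, the UV library was the highest and Rux lay between UV and CON, with the second ratio at the edge of 1.5-fold (−0.56 with equal weight per cell). VEC-like cells differed the same way for UV over CON (35.5 and 54.1 CPM, 0.61), while KB-like cells differed the opposite way (40.3 and 21.6 CPM, −0.90). Those values became 0.33 in VEC-like and −0.32 in KB-like cells with equal weight per cell, and the KB-like value was −0.19 with suspected doublets kept. Given the shift between KB-like clusters above, Plat was 41.6, 23.2 and 13.8 CPM in cluster 8 and 59.6, 36.3 and 31.7 CPM in cluster 28, but at most 7.001 CPM in cluster 38 in every library. PCY-like cells held 65.9, 67.9 and 38.6 CPM, and the Rux over UV ratio of −0.80 was −0.16 with suspected doublets kept.

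Plaur, the urokinase receptor, marked myeloid and endothelial cells. MYE-like cells held 408, 286 and 429.6 CPM, LEC-like cells 405, 399 and 265 CPM, and VEC-like cells 349, 352 and 277 CPM. The 3 ranges overlapped. In MYE-like cells the UV library was low, with ratios of −0.51 and 0.59 (0.45 to 0.72, and 0.50 with equal weight per cell), and the thinned shares of 47.7%, 35.8% and 53.1% (70.8%, 69.0% and 81.7% before thinning, with 1.83% to 6.31% of thinned PCY-like cells) had the same order. The make-up of the class differed between libraries. The Il1b and Chil3 cluster 21 had 72, 95 and 299 cells and 617, 425 and 519.96 CPM of Plaur, and cluster 20 had 205, 147 and 154 cells and 319, 208 and 259 CPM. Both clusters had their lowest Plaur in UV, but in both Rux lay below CON, unlike in the class as a whole. The part of the make-up in the MYE-like ratios was not tested.

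In LEC-like cells Plaur was lower in Rux than in UV (−0.59, −0.72 to −0.46, and −0.51 with equal weight per cell), and in LYM-like cells lower in UV than in CON (128 and 75.8 CPM, −0.76). Of the LYM-like cells, cluster 33, led by Gzmc and Xcl1, had 114 of 253, 57 of 241 and 67 of 360 and held 193, 150.1 and 122 CPM of Plaur, and cluster 15, led by Icos and Ikzf3, had the rest and held 72.6, 39.5 and 47.9 CPM. Both were highest in CON, and the cluster with more Plaur also had its largest share there. HF-like cells went the other way, from 59.1 to 100.3 CPM (0.76, 0.61 to 0.92), with 82.8 CPM in Rux. The unnamed epithelial clusters did as well, with 99.7, 170.4 and 143 CPM in cluster 5, 56.6, 144 and 123 CPM in cluster 7, and 12.3, 56.7 and 33.4 CPM in cluster 9, led by Cst6 and Defb6. FB-like cells held 93.0, 79.6 and 63.7 CPM.

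Over the 9 classes, 54 of the 72 gene and class pairs reached a mean of 10 CPM and 50 UMIs over both libraries and were compared for UV over CON. Of these, 15 were at least 1.5-fold higher in UV, against a background of 7.45% of all 66615 gene and class pairs, and 6 were at least 1.5-fold lower, against 8.34%. For Rux over UV, 53 pairs were compared, of which 3 were at least 1.5-fold higher (background 4.54%) and 11 at least 1.5-fold lower (background 6.92%). The pairs higher in UV were spread over Procr (5), Serpine2 (4), Plat (2), F3, Thbd, F2r and Plaur (1 each). Of the 11 pairs lower in Rux, 5 were Procr, 2 Thbd, 2 Plat, 1 F3 and 1 Plaur. By class, the genes higher in UV were 4 of 8 in FB, 3 of 8 in VEC (background 7.17%), 2 of 8 in LEC (7.01%), 2 of 6 in KB (8.89%), 2 of 5 in HF (5.94%), 1 of 6 in MYE (5.56%) and 1 of 4 in LYM-like cells (8.48%). Those lower in UV were 2 of 6 in MYE (11.6%), 1 of 8 in FB, 1 of 7 in PCY (7.25%), 1 of 6 in KB (8.52%) and 1 of 4 in LYM-like cells (12.4%). Lower in Rux were 3 of 8 in FB, 3 of 6 in PCY (9.71%), 2 of 8 in LEC (5.21%), 1 of 6 in KB (6.49%), 1 of 6 in MYE (11.6%) and 1 of 4 in LYM-like cells (6.31%), and higher in Rux 1 of 8 in FB, 1 of 6 in MYE (7.78%) and 1 of 4 in LYM-like cells (2.86%). Both comparisons use the UV library, so their values are given side by side and their mirror image is not a separate result.

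**Figure D3:**
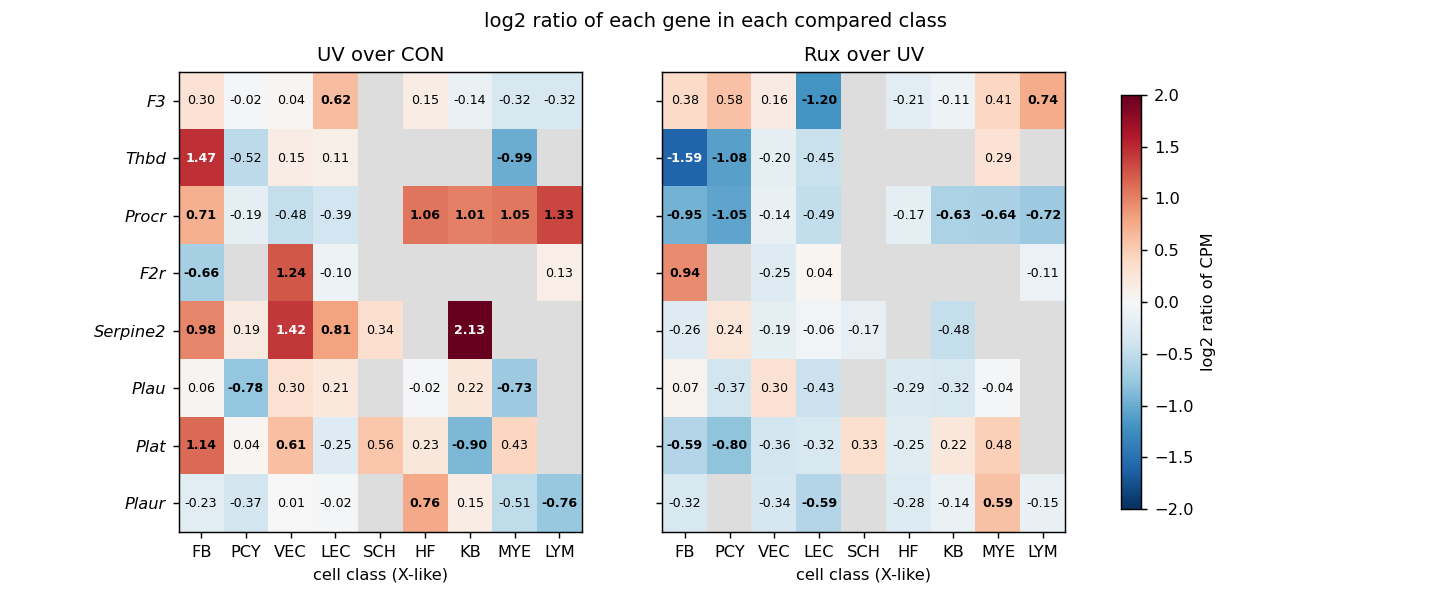
log2 ratio of CPM for each gene (rows) in each class (columns, each read as X-like), UV over CON on the left and Rux over UV on the right, with ratios of at least 1.5-fold in bold, pairs not compared in grey and the colour scale ending at 2.0 either way. FB-like cells show Thbd at 1.47 and −1.59, Procr at 0.71 and −0.95 and Plat at 1.14 and −0.59, and Serpine2 is past the fold in FB, VEC, LEC and KB-like cells on the left only.

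Fibroblasts were the class with the most cells and the most members past the fold. In FB-like cells 4 of the 8 genes were at least 1.5-fold higher in UV than in CON (Thbd, Procr, Serpine2 and Plat, background 6.39%) and 1 was lower (F2r, background 7.89%). The median of the 8 ratios was 0.50, beside −0.09 over the 8226 genes compared. For Rux over UV, 1 was higher (F2r, background 3.30%) and 3 were lower (Thbd, Procr and Plat, background 5.50%), with a median of −0.29 beside 0.01 over 8042 genes.

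The FB-like cells of the 3 libraries were not spread alike over clusters. In CON, 1843 of 3292 FB-like cells were in cluster 0, led by Myoc, Thbs4 and Cilp, against 1222 of 4923 in UV and 1164 of 4538 in Rux. Cluster 3, led by Sntg1, Smpd3 and Cxcl13 with Arhgap20 and Pla1a, had 127, 1093 and 363 cells, and cluster 17, led by Saa3 and Timp1, had 17, 160 and 419. With 1 library per condition, a cluster made mostly of 1 library may be that library and not a cell state. FB-like cells were clustered again into 13 subclusters, also without batch correction, and the members were read inside each. A subcluster can be made mostly of 1 library as well, such as subcluster 9 with 0, 14 and 430 cells in CON, UV and Rux. The same limit therefore holds for the values inside subclusters.

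Subcluster 4, led by Dtna, Limch1 and Arhgap20, had the highest level of Procr and Plat. It held 40, 911 and 379 cells, or 1.22%, 18.5% and 8.35% of FB-like cells in CON, UV and Rux. Its Procr level was 1539, 1799 and 1079 CPM, its Plat level 436, 521 and 454 CPM, and its Thbd level 203, 296 and 97.8 CPM. F3 stood there at 268, 78.5 and 213 CPM, low in UV. Because of its size it held 477 of the 9503 Procr UMIs of FB-like cells in CON, but 15306 of 26505 in UV.

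Other subclusters divided the members between them. Subcluster 3, led by Gdf10 and Csmd1 (5.65%, 15.4% and 9.50% of FB-like cells), held 972, 763 and 502 CPM of Procr and the highest CON level of Thbd, with 344, 272 and 123 CPM. Subcluster 7, led by Smpd3 and Rasgef1c, held 1087, 528 and 479 CPM of Procr but only 57.4, 37.4 and 48.5 CPM of F3. F3 was highest in subcluster 6, led by Rrad and Angptl7, with 749, 833 and 986 CPM, and in subcluster 0, led by Postn and Myo16, it was 293, 598 and 606 CPM. Plau was highest in subcluster 2, led by Thbs4 and Col8a1, with 462, 269 and 366 CPM. Subcluster 4 held 461, 266 and 250 CPM of Plau, with counting intervals that overlapped those of subcluster 2 in CON and UV, so only Rux separated them.

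**Figure D4:**
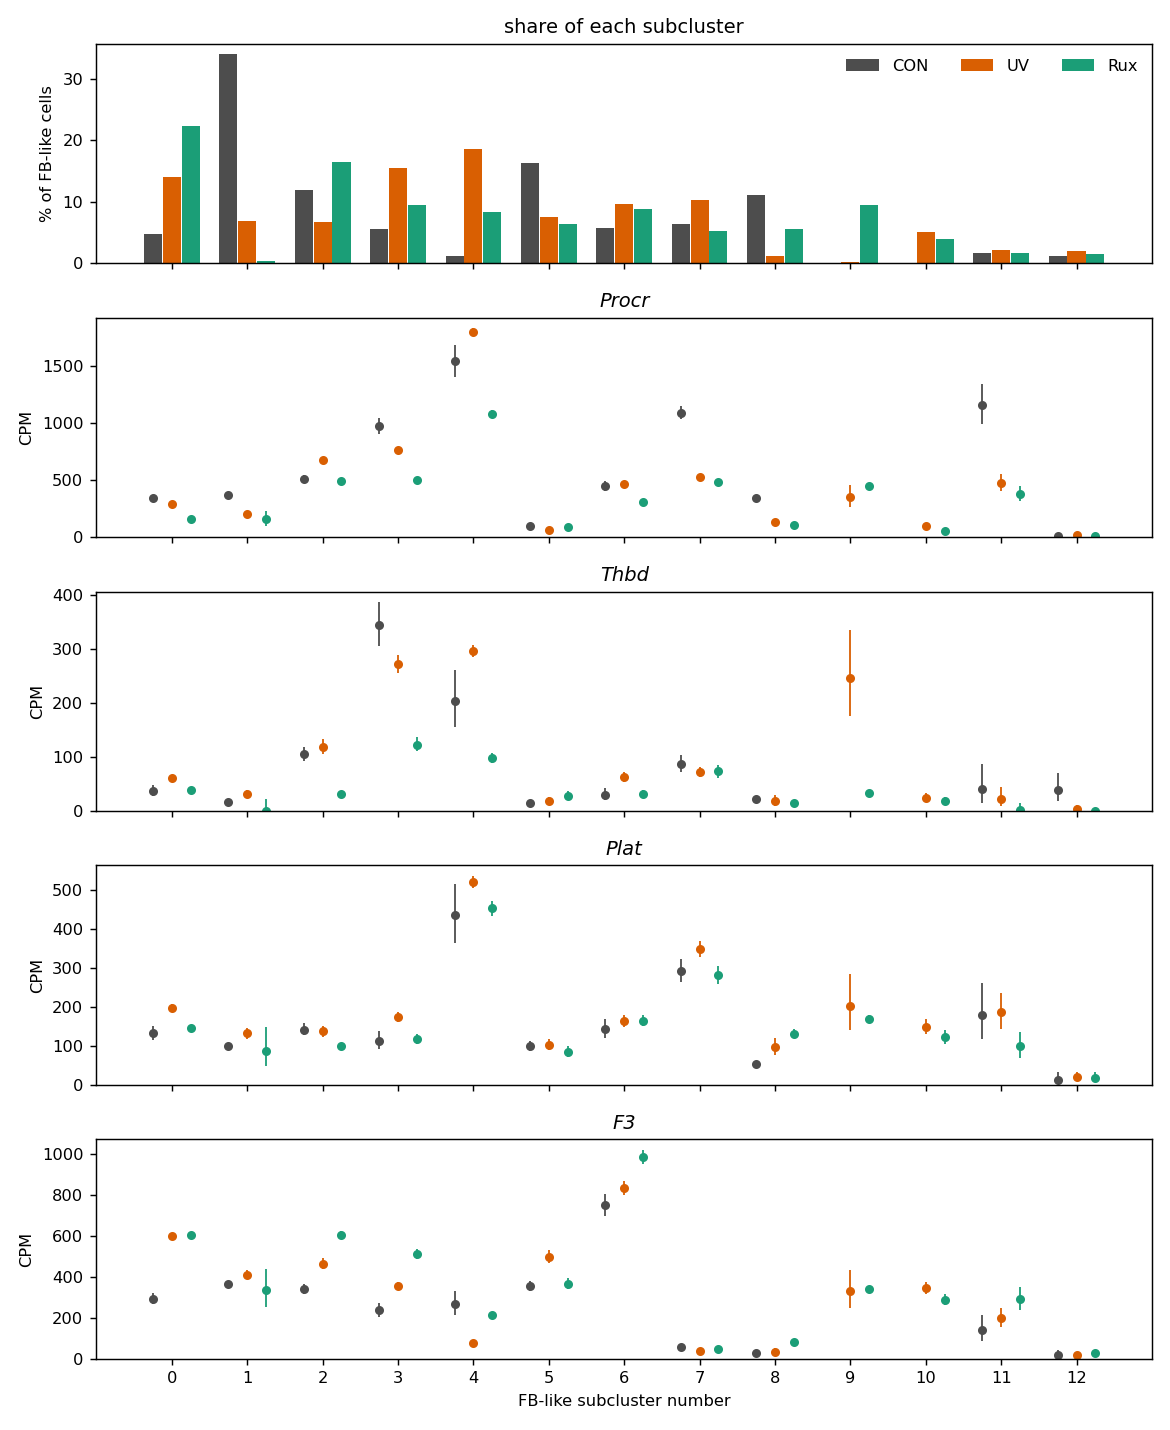
Top: share of FB-like cells (%) in each of the 13 subclusters by library. Below: level (CPM, linear axis from 0) of Procr, Thbd, Plat and F3 in each subcluster by library, with exact 95% counting intervals. Subcluster 4 goes from 1.22% of FB-like cells in CON to 18.5% in UV and has the highest Procr (1079 to 1799 CPM) and Plat (436 to 521 CPM), while F3 is highest in subcluster 6 (749 to 986 CPM).

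Within subclusters the direction of several members was not that of the whole class. Ratios were taken where both libraries had at least 50 cells. This left out subcluster 4 for UV over CON, with 40 cells in CON, whose Procr was 1539 (1404 to 1683) CPM in CON and 1799 (1771 to 1828) CPM in UV. Of the 9 subclusters compared between UV and CON, the counting interval of the Procr ratio lay below 0 in 7 and above 0 in 1, although Procr was higher in UV over all FB-like cells. For Plau it lay below 0 in 7 and above in 1. For Serpine2 it lay above 0 in 7 and below in none, for Plat above in 5 and below in none, and for F3 above in 6 and below in 1. Thbd was divided, with 3 above and 1 below. Where UMIs are many such an interval can miss 0 at a small ratio, as for F3 in subcluster 6 (0.15, 0.035 to 0.27). By the 1.5-fold call, Procr was lower in UV in 4 of the 9 and Plau in 5. Serpine2 was higher in 5 and Plat in 2, while F3 was higher in 2 and lower in 1. The share of all genes with such ratios or intervals inside subclusters was not counted, here or for Rux over UV.

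For Rux over UV, with 11 subclusters compared, the interval lay below 0 in 7 for Procr, 6 for Thbd, 7 for Plat and 7 for Plaur, and above 0 in 1, none, 1 and none of them. F3 was above 0 in 6 and below in 2. For Thbd, Procr and Plat the interval thus lay below 0 in most subclusters, but it covers counting error only. By the 1.5-fold call, Thbd was lower in Rux in 7 of the 11, Procr in 6 and Plat in only 1.

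When the subclusters were given the same weights in every library, most UV over CON ratios past the fold shrank. Subclusters may themselves follow the condition or the library, which cannot be told apart here, so the weighted ratios are a description. With the mean share of the 3 libraries as weight and the 11 subclusters that had at least 10 cells in each library, Thbd went from 1.47 to 0.15, Plat from 1.14 to 0.31 and Serpine2 from 0.98 to 0.54, all short of 1.5-fold. Procr changed sign, from 0.71 to −0.21, and F2r went from −0.66 to −0.01. Plau moved the other way, from 0.06 to −0.61. F3 stayed at 0.35. Under the mean shares the CON level of Procr rests partly on subcluster 4, whose 40 CON cells, at 1539 CPM, were too few for a ratio above. With the shares of CON as weights, Procr was −0.47, Thbd 0.14, Plat 0.31 and Serpine2 0.54.

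For Rux over UV, Thbd kept a ratio of −1.17 under the mean shares, Procr went from −0.95 to −0.55, Plat from −0.59 to −0.31, F2r from 0.94 to 0.37, and Plaur from −0.32 to −0.71. Serpine2 changed sign, from −0.26 to 0.05, and was 0.36 with the shares of CON, while F3 went from 0.38 to 0.15 and −0.01. Thbd alone was past 1.5-fold both as captured and with either weighting. The weights of CON place 33.9% on subcluster 1, led by Socs3, Gadd45g, Zfp36 and Egr1. It had 1117, 340 and 17 cells, so the Rux values under these weights rest on few cells. The mean shares also count this subcluster, which made up 33.9%, 6.91% and 0.375% of FB-like cells in CON, UV and Rux. Its 17 Rux cells held 0 UMIs of Thbd, Plaur and F2r, so the mean-share Rux values of these genes rest partly on few cells too.

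**Figure D5:**
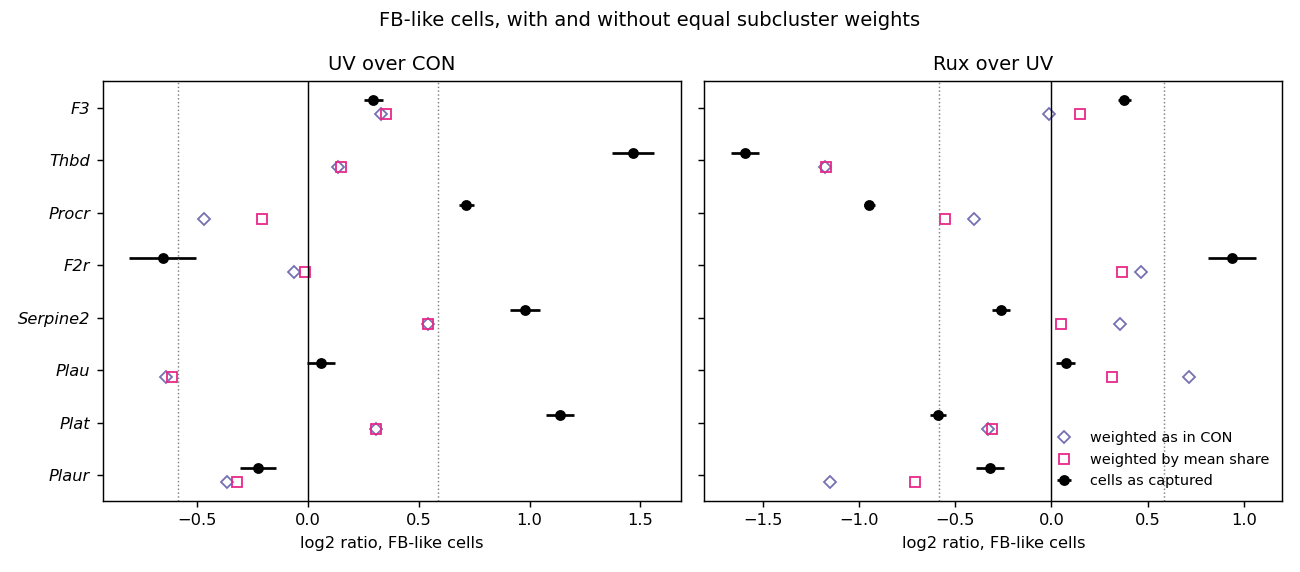
log2 ratio of each gene in FB-like cells, UV over CON (left) and Rux over UV (right), for the cells as captured (black, with exact 95% counting intervals) and with subclusters weighted as in CON (diamonds) or by their mean share of the 3 libraries (squares), with dotted lines at 1.5-fold. Thbd for UV over CON goes from 1.47 to 0.15 and Procr from 0.71 to −0.21 under the mean shares, whereas Thbd for Rux over UV stays at −1.17.

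A Procr UMI was more frequent in fibroblasts with a Thbd UMI than in those without. After thinning, a Procr UMI was present in 52.7% and 69.3% of FB-like cells with a Thbd UMI in CON and UV and in 146 of 292 such cells in Rux, and in 38.1%, 42.3% and 33.9% of those without. In LEC-like cells the shares were 56.7% with and 36.1% without in CON, 47.3% and 30.5% in UV, and 22.6% and 28.2% in Rux, so the order turned in Rux, with 31 Thbd-positive cells. In VEC-like cells they were 25% with and 21.1% without in CON, 22.6% and 23.8% in UV, and 18.0% and 20% in Rux, so the order differed between libraries. In UV, FB-like cells with a F3 UMI had Procr in 37.8% and those without in 51.1%, while in CON both shares were 37.8%. Cells of 1 library are not replicates, so these shares carry no test.

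RNA that can mark a stress response or blood in the sample was read beside the members. A list of 20 immediate-early genes, which respond to stress and to tissue dissociation, was at least 1.5-fold lower in UV than in CON for 14 genes in FB-like cells (median −1.03, beside the 7.89% of all genes above) and at least 1.5-fold higher for 11 genes in KB-like cells (median 0.64, beside 8.89%). It was also lower for 8 of 17 genes in LYM (12.4% of all genes), 8 of 20 in PCY (7.25%) and 6 of 20 in MYE-like cells (11.6%). In LEC, HF, VEC and SCH-like cells 7 of 19, 4 of 20, 1 of 20 and 0 of 19 genes of the list were lower, beside 8.34% over all 9 classes. The median of the list there was −0.23, −0.36, −0.07 and −0.02. Over all genes compared in these classes the median was 0.02, −0.11, 0.01 and −0.02. Haemoglobin RNA over all cells was higher in the irradiated libraries, with Hbb-bs at 5.75, 378 and 399.8 CPM. Of the platelet genes read, Pf4 stood at 8.97, 6.96 and 12.6 CPM and Itga2b at 4.43, 7.78 and 6.43 CPM. The other platelet genes, Ppbp, Gp9 and Gp1bb, stayed at or below 0.348 CPM in every library. Their part in the member values was not tested.

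Summed over all kept cells, F3 was at 364, 461 and 420.3 CPM, Procr at 130.5, 286 and 187 CPM and Thbd at 26.8, 67.1 and 31.6 CPM. Serpine2 was at 127, 165 and 119 CPM, Plat at 81.6, 128 and 101 CPM, Plaur at 84.3, 118 and 91.9 CPM, Plau at 65.9, 86.0 and 90.5 CPM, and F2r at 22.5, 23.1 and 35.8 CPM. In such sums fewer cells of a type and less RNA per cell cannot be told apart.

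The wider clotting and plasminogen list of 49 genes gave the members their surroundings. In FB-like cells 15 of them were compared for UV over CON, and 1 was at least 1.5-fold higher and none lower, beside 6.39% and 7.89% of all genes. For Rux over UV, 4 of 17 were higher and none lower, beside 3.30% and 5.50%. Among these, Masp1, a complement protease able to cut fibrinogen, was 38.6 CPM in UV and 67.7 CPM in Rux (0.81).

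In VEC-like cells Vwf, the gene for the adhesive von Willebrand factor, was 527, 223 and 364 CPM in CON, UV and Rux (−1.24, then 0.71). Vwf is among the leading genes of cluster 27, which had 192, 91 and 59 of the 481, 650 and 243 VEC-like cells, a share in the same order as the Vwf level, and the level within clusters was not tested.

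KB-like cells had 5 of 13 list genes at least 1.5-fold higher in UV than in CON and 1 lower, beside the 8.89% and 8.52% above. Among these were Thbs1, for the adhesive protein thrombospondin 1 (162 and 516 CPM, 1.67), and Serpinb2, for an inhibitor of urokinase (58.4 and 166 CPM, 1.51). MYE-like cells had 5 of 15 at least 1.5-fold higher in Rux than in UV and 3 lower, beside 7.78% and 11.6%. Thbs1 was 1014 and 2856 CPM (1.49), and F10, for clotting factor X, 177 and 315 CPM (0.83). Gas6, a vitamin K-dependent ligand, was 114 and 48.7 CPM (−1.23), and Serpinb6a 123 and 75.1 CPM (−0.71). The Il1b and Chil3 cluster 21 made up 95 of 242 MYE-like cells in UV and 299 of 453 in Rux. The levels of these list genes within the KB-like and MYE-like clusters were not tested.

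The genes whose levels ran most like each member over 37 class and library sums of 15 classes were found by Pearson correlation of log2(CPM + 1) among 8864 genes. The sums share libraries and depth, so r is a description. For F3 they were Tmem45a, Egfr and Robo1 (0.855, 0.853 and 0.850), and for Thbd Nhsl2, Lrrc32 and Meox2 (0.944, 0.887 and 0.871). Procr ran most like Ebf1, Lrrc32 and Thbd (0.906, 0.869 and 0.851), so the protein C pathway genes were near each other in pattern.

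For Serpine2 the nearest were Casp12, Nr2f2 and Igfbp5 (0.913, 0.904 and 0.896), for Plaur Sh3tc1, F5 and Vav3 (0.859, 0.833 and 0.826), and for Plat Colec12, Nrxn2 and Kif26b (0.842, 0.831 and 0.783). F2r and Plau had looser neighbours. They were Nfatc1, Esyt2 and Rnf125 for F2r (0.816, 0.755 and 0.754), and Tubb6, Dnajb4 and Atf4 for Plau (0.753, 0.708 and 0.707).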

How the data were processed

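Single-cell RNA-seq (10x 3' v3.1) was analysed in 3 libraries. The authors deposited raw UMI counts per gene and called cell, made with Cell Ranger against mm10. The submitters' notes name version 6.1.2 and the matrix headers 7.0.0, and intron counting is not given in the sources used here. The deposited matrices held 13170, 12411 and 11287 cells and 165337289, 133972374 and 131570327 UMIs in CON, UV and Rux.

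Cells were kept with 200 genes or more and no more than 10% of UMIs from mitochondrial genes, and Scrublet in scanpy 1.11.5 marked 1269, 1128 and 923 suspected doublets, at 0.8% per 1000 cells, which were removed. Seurat 5.3.0 under R 4.3.3 clustered all cells without batch correction (2000 variable genes less the members and the pathway list, 30 principal components, resolution 1.5) and FB-like cells again (20 components, resolution 0.5). A cluster was named when at least 3 of a lineage's markers were detected in at least 10% of its cells and no other lineage came near. After the clusters were seen, at least 2 markers within 10-fold of their highest cluster were also required. Krt85 is not listed, so HF rests on the other markers.

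UMIs were summed per class and library with Python 3.11.15. A gene was compared at a mean of at least 10 CPM and 50 UMIs over both libraries, and the ratio has 0.5 UMI added to each sum. Both intervals are exact, from Poisson or conditional binomial limits at 95%. With 1 library per condition no test was made, and 1.5-fold was the call. The scripts were tested on simulated data.

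Members, lists and rules were chosen with earlier results of these data known. All members are named. From the pathway list, genes past the fold in FB, VEC, KB or MYE-like cells at a mean of at least 50 CPM are named, at most the 4 largest per class and contrast, with 8 fixed genes such as Thbs1 where their level is needed, and for likeness the 3 best correlations. Alternatives covered the cell filter, doublets, resolution, variable genes, scaling, cell weights, thresholds and cluster or subcluster weights. An item withheld from this text is not reported here.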

Additional observations from a re-analysis of the deposited data

How the results depend on the processing

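No paired analysis was possible because each condition has 1 library, and for the same reason no replicate could be left out. Over all FB, HF, KB, LEC, LYM, MYE, PCY, SCH and VEC-like pairs, the count lower in Rux was 11 of 53. It was 4 of 45 with a stricter filter on cells (6.097% of all gene and class pairs), which left PCY and SCH-like cells out of the comparison, and 18 of 68 with 20 UMIs and no CPM minimum (12.8% of all). PCY-like cells held 3 of the 11 and SCH-like cells 0, so under the stricter filter pairs of other classes fell short of the fold too. The count higher in UV, 15 of 54, was 24 of 62 without doublet removal (7.94% of all). At 2-fold the counts were 9 higher and 0 lower of 54 in UV than in CON (2.32% and 2.06% of all), and 0 higher and 4 lower of 53 in Rux than in UV (0.944% and 2.00% of all). Procr in FB-like cells, 0.71 for UV over CON, was −0.47 with subclusters weighted as in CON and −0.21 with their mean shares. This weighting by mean share was chosen after the data were seen, as was leaving out clusters under 10% of their class in any library. Under the last, the UV over CON ratios in FB-like cells were 1.15 for Thbd, 0.11 for Procr, 0.52 for Serpine2 and 0.36 for Plat. Only clusters 0 and 2 of the FB-like cells were left there. Cluster 0 had 1843, 1222 and 1164 cells in CON, UV and Rux and cluster 2 had 393, 918 and 766, so the make-up still differed. Of 35 values past the fold, 35 stayed past it at resolution 0.8, 29 with median-of-ratios scaling, 26 with equal weight per cell and 26 without doublet removal. The cause was not tested. Values near 10 CPM in classes of few UMIs have wide counting intervals, and no interval covers animals.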

Other observations

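Classes with under 100 cells in a library were left out of the comparisons but carried some of the members at high level. Neutrophil-like cells (50, 21 and 221 in CON, UV and Rux) held 608, 334 and 526 CPM of the urokinase receptor gene Plaur, with overlapping counting intervals. Muscle progenitor-like cells (150, 39 and 29) held F2r at 107, 144 and 224 CPM and Plat at 187, 216 and 183 CPM, on 18 to 94 UMIs. Plau in them was 195.0 CPM in CON (98 UMIs), 55.9 CPM in UV (7 UMIs) and 83.1 CPM in Rux (10 UMIs), and the CON interval of 158 to 238 CPM did not reach the others. Mast cell-like cells (64, 172 and 211) held Plau at 78.4, 128 and 80.5 CPM.

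Melanocyte-like cells (160, 66 and 37) held F3 at 161 CPM in CON, 201 CPM in UV and 420.3 CPM in Rux. The counting interval of Rux, 374 to 471 CPM, lay apart from the others, and it rests on 37 cells. Plat in the same cells was 161, 179 and 179.9 CPM, with overlapping intervals.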
